A study of Mus musculus with 24 samples.

Results

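Cytosolic heat shock chaperones were followed as a set of 10 mouse genes fixed by symbol: Hspa1a, Hspa1b, Hspa8 and Hsph1 of the Hsp70 and Hsp110 families, Hsp90aa1 and Hsp90ab1, the J-domain genes Dnajb1 and Dnaja1, the small heat shock gene Hspb1, and Hspe1. Of these 10, 9 were among the 19805 genes that the deposited liver tables list, and Dnaja1 was not analysed here. Hspe1 encodes a partner of the mitochondrial chaperonin, so it is the member whose protein works outside the cytosol. The members were chosen by name and not by a rule on measured values, but with earlier results of these data known.

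The study sequenced total RNA from livers of male mice in 6 groups, with 4 libraries analysed per group. Wild-type (WT) C57Bl/6N mice, 19 to 20 weeks old, received vehicle (distilled water), 10 mg/kg pravastatin, 10 mg/kg atorvastatin or 100 mg/kg PCN (pregnenolone 16α-carbonitrile, a steroid that activates the pregnane X receptor PXR in rodents). Mice lacking PXR (PXRKO), labelled as on the same C57Bl/6N strain and 20 weeks old, received vehicle or 10 mg/kg atorvastatin in a separate experiment. All groups were gavaged for 4 days and then fasted for 12 h before the livers were taken. Because each genotype was a separate experiment, genotype and experiment cannot be told apart. Statins inhibit the rate-limiting enzyme of cholesterol synthesis, and the PCN dose by weight was above the statin dose.

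Heat shock chaperones bind unfolded or nascent proteins and help them fold. Hsp70 proteins cycle on and off their clients with ATP, J-domain proteins such as Dnajb1 and Dnaja1 deliver clients and trigger ATP hydrolysis, Hsp110 proteins such as Hsph1 exchange the nucleotide, and Hsp90 takes over partly folded clients such as nuclear receptors and kinases. The inducible members are transcribed by heat shock factor Hsf1, which binds inverted repeats of a short heat shock element in their promoters, whereas Hspa8 and Hsp90ab1 are made constitutively in most cells. In liver, Hsp90 with its partners is known to hold ligand-dependent receptors, the glucocorticoid receptor best known among them, ready to bind ligand.

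Levels are read counts divided by a size factor on a common scale (normalised counts). The vehicle and PCN libraries held 6.64 M to 24.6 M counts (M, mega) in listed genes, and vehicle library 3 was the shallowest. Only the table of WT vehicle and PCN holds nearly all genes (19650), so all 9 members have levels in those groups. Hspa1b and Hsph1 also have levels in both PXRKO groups, Hsp90aa1 in WT atorvastatin, and Dnajb1 in every group but pravastatin. The tables of the other comparisons list genes up to a limit on the adjusted p, so a member has levels there only where it came under that limit in some comparison. Nr1i2, which encodes PXR, stood at 1069 to 1665 in the 12 WT libraries with values and at 398 to 659 in the 8 PXRKO libraries, with no overlap, and reads outside the deleted part can remain in such a gene count. Hepatocyte markers were abundant, with summed levels of 835633 to 977278 in vehicle and 745750 to 802649 with PCN (8 of 8 markers listed). In a bulk tissue, fewer cells of a type and less RNA per cell cannot be told apart.

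The promoters of the members called lower with PCN, and of members that were not, are shown to place their heat shock elements. Promoter windows (250 bases before to 50 after a RefSeq start, build GRCm38.p6) were on hand for 7 members: Hspa1a, Hspa1b, Hsph1, Dnajb1, Dnaja1, Hspb1 and Hspe1. Hspa8, Hsp90aa1 and Hsp90ab1 had none. Capitals mark the letters GAANNTTC or TTCNNGAA, a pair of inverted heat shock element units, each of which reads the same on both strands. Overlapping pairs are merged into 1 run of capitals. The 250 bases before the start are printed 5′ to 3′ on the gene's own strand.
Hspa1b, chr17:34959239-34959488, minus strand: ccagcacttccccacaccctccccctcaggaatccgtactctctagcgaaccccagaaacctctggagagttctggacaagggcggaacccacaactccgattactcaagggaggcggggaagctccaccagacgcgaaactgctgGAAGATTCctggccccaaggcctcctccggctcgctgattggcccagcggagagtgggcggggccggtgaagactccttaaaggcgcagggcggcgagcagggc
Dnajb1, chr8:83607925-83608174, plus strand: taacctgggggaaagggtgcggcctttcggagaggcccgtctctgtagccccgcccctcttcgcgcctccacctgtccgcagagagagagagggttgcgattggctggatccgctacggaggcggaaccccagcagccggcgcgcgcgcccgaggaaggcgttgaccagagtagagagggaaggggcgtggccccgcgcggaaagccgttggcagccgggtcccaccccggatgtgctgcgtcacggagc
Hspb1, chr5:135887669-135887918, plus strand: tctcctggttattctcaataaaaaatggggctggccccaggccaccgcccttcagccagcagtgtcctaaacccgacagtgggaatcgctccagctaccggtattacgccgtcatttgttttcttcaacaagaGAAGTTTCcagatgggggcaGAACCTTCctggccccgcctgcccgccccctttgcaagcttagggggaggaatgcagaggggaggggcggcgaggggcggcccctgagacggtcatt
Hspe1, chr1:55087898-55088147, plus strand: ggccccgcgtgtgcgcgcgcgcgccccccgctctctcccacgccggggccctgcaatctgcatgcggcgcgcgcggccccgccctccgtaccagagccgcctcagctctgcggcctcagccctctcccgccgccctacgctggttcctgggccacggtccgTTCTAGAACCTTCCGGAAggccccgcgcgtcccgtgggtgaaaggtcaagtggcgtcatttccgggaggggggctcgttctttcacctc

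The pair of units was found in windows of 6 of the 7 members, compared with 17.0% of 27025 genes with a window. In Hspa1b it lay at bases −104 to −97 from the start, followed by CCAAT at −67 to −63. Hspb1 held the pair at −117 to −110 and again at −97 to −90. The window of Dnajb1 printed above and its other window held no such letters, which says only that these letters are not in these windows. A run of 3 alternating units (GAA, NN, TTC, NN, GAA, or the same starting from TTC) was found in Hspe1, at −89 to −77 and overlapping at −84 to −72, and in Hsph1 at +36 to +48 from one start and +15 to +27 from another. These 2 of 7 members compare with 0.662% of all genes. The letters TATAAA were in none of the 7 members (15.7% of genes) and CCAAT was in 5 (41.1% of genes), both searched on either strand.

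The promoter of Hspa1a differed from that of Hspa1b in 3 of 250 bases, and the coding sequences differed in 8 of 1926 aligned bases plus 3 bases in a gap. Hspa1a (chr17:34969190-34972156) and Hspa1b (chr17:34956436-34959238) are neighbouring genes of 1 exon each on the minus strand. Of all 50-base windows of the Hspa1b transcript, 62.3% occur in another gene. How reads that fit both genes were counted is not given in the sources used here, so the split between Hspa1a and Hspa1b is uncertain. Part of the transcript was also shared with other gene models for Hspb1 (48.8% of 50-base windows, shared with Hsp25-ps1), Hsp90aa1 (47.5%), Hspa8 (38.6%), Hspe1 (18.4%), Hsp90ab1 (3.44%) and Dnajb1 (0.380%). Hsph1 shared none.

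Per kilobase of exon, the constitutive members dominated the vehicle livers. Hsp90ab1 stood at 2442 ± 266 and Hspa8 at 2276 ± 215 normalised counts per kb (SD, n = 4), a difference smaller than either SD. Hsp90aa1 (368 ± 84.9) and Hspe1 (335 ± 23.0) followed and did not differ beyond their spread. Hspb1 (148 ± 42.7), Hsph1 (124 ± 34.2), Dnajb1 (113 ± 21.0) and the inducible Hspa1b (105 ± 85.7) lay close together within their SDs. Hspa1a was lowest at 3.39 ± 2.61. With PCN the order of the constitutive genes was the same, Hsp90ab1 at 2159 ± 282 and Hspa8 at 1888 ± 223 per kb, while Hspa1b stood at 19.3 ± 5.89 per kb, below Dnajb1 at 70.2 ± 5.29 (SD, n = 4).

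PCN against vehicle asks what a PXR activator does in WT liver. Hspa1b, an inducible Hsp70, fell 5.44-fold and Dnajb1, the J-domain partner that stimulates inducible Hsp70, fell 1.62-fold. No other member passed the test in edgeR. Of the 8 members tested, 2 were called lower and 0 higher, where 1.64% of 12938 genes tested were called lower. Hspa1a was not tested because it fell under the filter on low counts. The fitted change was below 0 in 7 of 8 members (50.2% of all genes), and 5 of 8 were lower at an unadjusted p under 0.05 (8.42% of all genes). In the authors' deposited table of the same libraries the same 2 members were called (2.61% of genes called lower there).

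Hspa1b stood at 199.96, 204, 651 and 124 normalised counts in vehicle libraries 1 to 4, and at 71.7, 55.9, 31.9 and 57.2 in PCN libraries 1 to 4. Every PCN library lay below every vehicle library, and vehicle library 3 stood far above the other vehicle libraries. The mean was 295 ± 240.1 with vehicle and 54.2 ± 16.5 with PCN (SD, n = 4), and the fitted log2 fold change was −2.33 ± 0.47 (SE; adjusted p = 0.0188, edgeR). Without vehicle library 3 the ratio of means was 3.25 in place of 5.44, with a log2 fold change of −1.66 and adjusted p = 0.00888 (edgeR). The call was lost when PCN library 2, 3 or 4 was left out, at adjusted p of 0.0657, 0.0524 and 0.0628 (edgeR), with log2 fold changes of −2.17 to −2.34. The authors' deposited tables give Hspa1b a log2 fold change of −2.43 in the least filtered list and −0.75 in the list restricted by adjusted p, and both list it as called.

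Hspa1a, the near-identical neighbour, had 4, 24, 11 and 5 reads in the vehicle libraries and 0, 3, 0 and 4 reads with PCN. Totals were 44 reads with vehicle and 7 with PCN, too few for the filter, and the groups overlapped. In a fit with no filter its log2 fold change was −2.33 ± 0.83 (SE; adjusted p = 0.194, edgeR). Adding the reads of both genes gave −2.33 ± 0.47 (SE; adjusted p = 0.0183, edgeR). This summed value does not depend on how counted reads were split between Hspa1a and Hspa1b. Hspa1a added 44 reads to 1114 with vehicle and 7 to 225 with PCN, so the sum could move little. Any reads that fit both genes and were counted for neither are not in it.

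Dnajb1 stood at 309, 384, 449.7 and 311 in vehicle libraries 1 to 4 and at 233, 236, 231 and 199.6 with PCN. The groups did not overlap, and vehicle library 3 was again the highest. The mean was 363 ± 67.3 with vehicle and 225 ± 16.9 with PCN (SD, n = 4; log2 fold change −0.68 ± 0.13 SE, adjusted p = 0.0135, edgeR). Dnajb1 was called whichever library was left out, at adjusted p of at most 0.0494 (edgeR), and stood at −0.58 without vehicle library 3. In an exact two-sided permutation test over libraries both Hspa1b and Dnajb1 gave p = 0.0286, the smallest value that 4 against 4 allows. Over members and comparisons 20 such tests were run. Dnajb1 gave the same p in PXRKO against WT under atorvastatin and in atorvastatin against PCN. Every PCN library lay below every vehicle library in 5.91% of all genes tested.

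**Figure D1:**
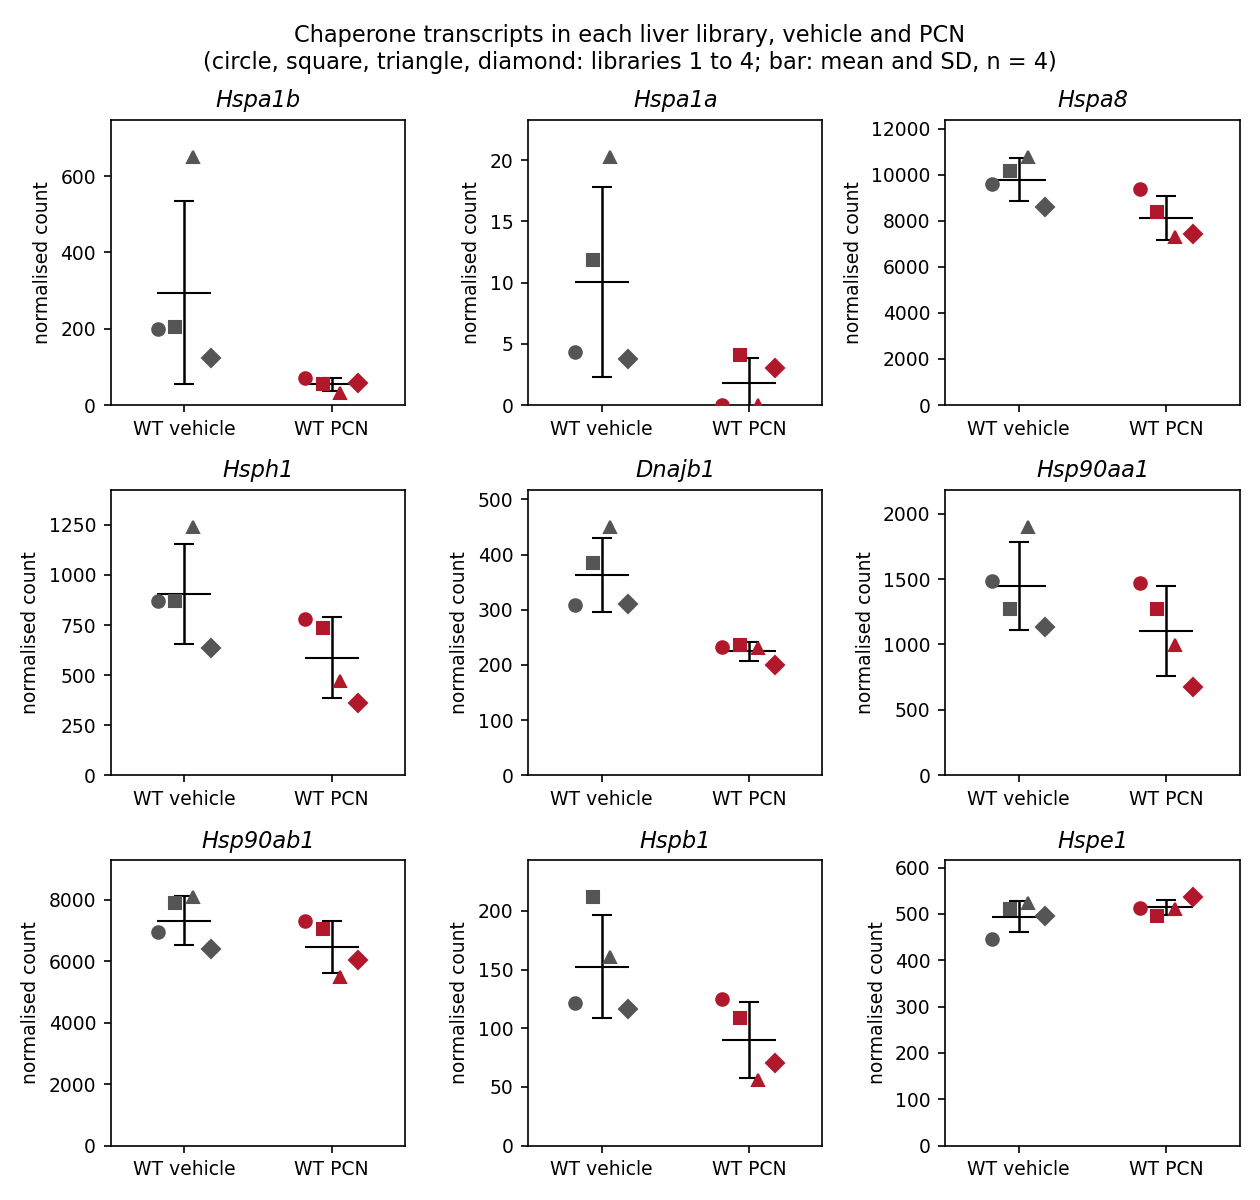
Normalised counts of the 9 listed members in each WT liver library after vehicle or PCN; points are libraries, and bars give the mean and SD (n = 4). Hspa1b and Dnajb1 do not overlap between the groups, Hspa1b spans 124 to 651 with vehicle, and the triangle of vehicle library 3 is the highest vehicle point in 8 of 9 panels.

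Hspa8, the constitutive Hsp70 that carries most housekeeping folding, stood at 9604, 10177, 10772 and 8598 with vehicle and at 9369.9, 8364, 7298 and 7445 with PCN. Only PCN library 1 reached into the vehicle range. The log2 fold change was −0.26 ± 0.10 (SE; adjusted p = 0.199, edgeR). Hspa8 hosts 3 small nucleolar RNA genes, Snord14c, Snord14d and Snord14e.

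Hsph1, the Hsp110 exchange factor that also breaks up aggregates with Hsp70, stood at 871, 872, 1238 and 637 with vehicle and at 781, 733, 469 and 363 with PCN. PCN libraries 1 and 2 lay above vehicle library 4, so the groups overlapped. The log2 fold change was −0.61 ± 0.24 (SE; adjusted p = 0.208, edgeR) and −0.43 without vehicle library 3.

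Hsp90aa1, the inducible Hsp90, stood at 1488, 1268, 1896 and 1134 with vehicle and at 1469.9, 1274, 999 and 679 with PCN. The ranges overlapped broadly, and the 95% interval of the log2 fold change, −0.85 to 0.09 around −0.38, included 0 (adjusted p = 0.386, edgeR). Its constitutive counterpart Hsp90ab1 stood at 6947, 7889, 8078 and 6386 with vehicle and at 7299, 7053, 5492 and 6056 with PCN. These groups overlapped as well (log2 fold change −0.17 ± 0.11 SE, adjusted p = 0.440, edgeR).

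Hspb1, a small heat shock protein that holds unfolding proteins without ATP, stood at 121, 211, 160.3 and 117 with vehicle and at 125, 109, 56.2 and 70.8 with PCN. PCN library 1 lay above vehicle libraries 1 and 4. Its fitted change was close to that of Dnajb1, with a wider spread (−0.75 ± 0.26 SE, adjusted p = 0.150, edgeR). Hspe1, the co-chaperonin of Hspd1, was the exception in direction, at 446, 511, 523 and 496 with vehicle and 514, 495, 511 and 535 with PCN. Its 95% interval, −0.10 to 0.23 around 0.06, leaves room for a change of either sign (adjusted p = 0.680, edgeR). Hspe1 overlaps its partner gene Hspd1 on the other strand, and the counting setting for strand is not given in the sources used here.

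**Figure D2:**
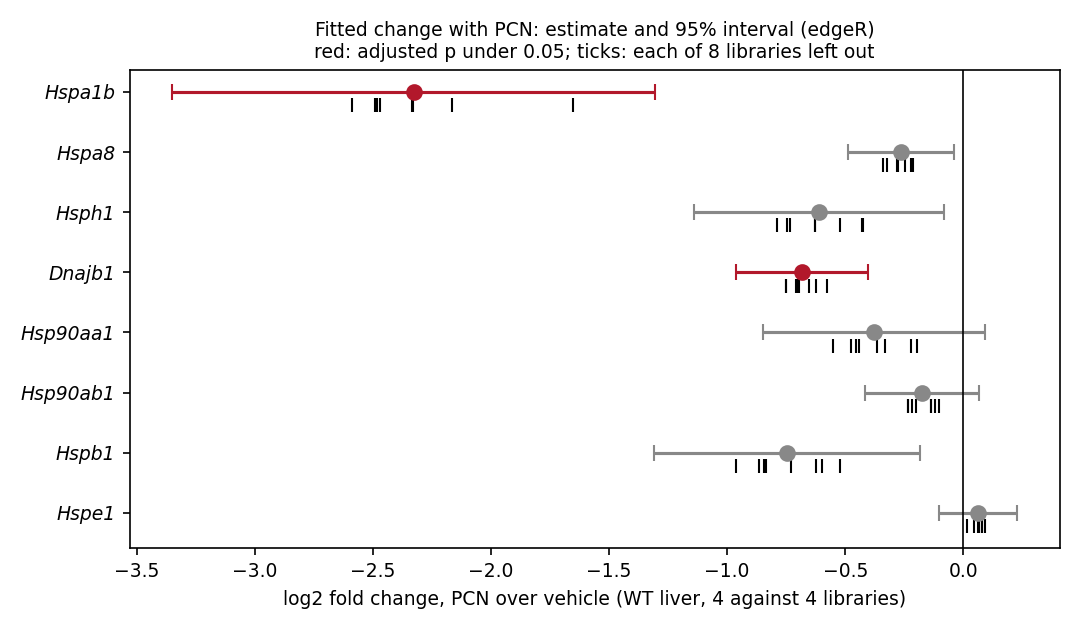
Fitted log2 fold change of the 8 tested members, PCN over vehicle, with 95% intervals; red marks adjusted p under 0.05, and ticks give the estimate with each of the 8 libraries left out. Hspa1b at −2.33 and Dnajb1 at −0.68 are red, Hspa1b moves to −1.66 when vehicle library 3 is left out, and Hspe1 at 0.06 is the member above 0.

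Ratios within a library do not depend on the size factor. Hspa1b was 2.08%, 2.00%, 6.04% and 1.44% of Hspa8 in vehicle libraries 1 to 4 and 0.765%, 0.668%, 0.437% and 0.769% with PCN. Dnajb1 was 3.70 ± 0.395% of Hspa8 with vehicle and 2.79 ± 0.283% with PCN (SD, n = 4). Neither ratio overlapped between the groups. Hsp90aa1 as a percentage of Hsp90ab1, 19.7 ± 3.38 with vehicle and 16.9 ± 3.91 with PCN (SD, n = 4), did overlap.

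The libraries ranked alike for most members. Among the vehicle libraries, library 3 came first for 8 of 9 members, against 27.5% of all genes tested, Hspb1 being the exception. Vehicle library 4 was the lowest for 7 of 9. Among PCN libraries, library 1 was the highest for 6 of 9 and library 3 the lowest for 5. Over the same 8 libraries, which share the difference between the groups, Pearson's r with Hspa1b was 0.92 for Dnajb1, 0.89 for Hspa8, 0.81 for Hsph1 and −0.14 for Hspe1, and r between Hsp90aa1 and Hsph1 was 0.96. The cause of the high values in vehicle library 3, which was also the shallowest of the 8, was not tested.

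Of 9700 genes averaging 50 normalised counts or more, those whose 8-library pattern was most like that of Hspa1b were Arf3, Aaas, Ddi2, Slc35b1, Psap and Syvn1 (Pearson's r 0.97 to 0.99), all above the closest member, Dnajb1. Arf3 stood at 1079 ± 75.9 with vehicle and 937 ± 34.3 with PCN, and Syvn1, a ubiquitin ligase of the endoplasmic reticulum, at 1693 ± 633 and 912 ± 149.6 (SD, n = 4). Most like Hsp90aa1 was the member Hsph1, followed outside the set by Sdf2l1, Adam17, Eif3a, Ccnd2, Adcy7 and Shroom2 (r 0.95 to 0.96). Sdf2l1, a chaperone cofactor of the endoplasmic reticulum, stood at 159 ± 57.3 with vehicle and 83.3 ± 36.9 with PCN (SD, n = 4). These 8 points share the libraries, their depths and the group difference.

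None of the 8 tested genes nearest Hspa1b on chromosome 17 was called lower. Lsm2, Gm10501 and Vars after Hspa1a, and Neu1, 1110038B12Rik and Zbtb12 on the other side, had log2 fold changes of −0.16 to 0.08 and were not called. C2, a complement component, rose (0.58 ± 0.10 SE, adjusted p = 0.00749, edgeR). Msh5 was not called (0.14 ± 0.31 SE, adjusted p = 0.799, edgeR).

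Related gene groups were read in the same fit. The median log2 fold change was −0.49 over the 8 tested chaperones and −0.01 over all genes, and without vehicle library 3 it was −0.33 and 0.01. Among 15 other heat-shock-induced genes 2 were called lower, 0 higher, with a median of −0.29 (−0.21 without vehicle library 3). These were Bag3, the Hsp70 exchange factor that links clients to autophagy, which fell from 632 ± 155.9 to 317 ± 45.6 (SD, n = 4; log2 fold change −0.97 ± 0.16 SE, adjusted p = 0.00749, edgeR), and Sqstm1, an autophagy receptor, which fell from 5934 ± 124 to 4533 ± 441 (SD, n = 4; −0.38 ± 0.08 SE, adjusted p = 0.0244, edgeR). Without vehicle library 3 only 1 of the 15 was called. Bag3 was also the one call among 10 Hsp70 exchange factors and regulators (median −0.12).

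Partner proteins of the members were mostly not called. None of 16 Hsp90 co-chaperones was called (5 lower at an unadjusted p under 0.05, edgeR; median −0.10), Stip1, which bridges Hsp70 and Hsp90, standing at 666 ± 81.4 with vehicle and 526 ± 97.8 with PCN (SD, n = 4). Fkbp5, a glucocorticoid-induced co-chaperone, stood at 1386 ± 681 and 1952 ± 254 (SD, n = 4; adjusted p = 0.350, edgeR). None of 6 other Hsp70 and Hsp110 genes (2 lower at an unadjusted p under 0.05, edgeR), 12 other J-domain genes (2), 11 TRiC and prefoldin subunits (1) and 2 small heat shock genes (0) was called in either direction by edgeR. Dnajb6 and Dnajb4, J-domain genes of the same class as Dnajb1, had log2 fold changes of 0.33 ± 0.09 and −0.28 ± 0.08 (SE; adjusted p = 0.0747 and 0.0737, edgeR). Of 10 mitochondrial chaperone genes 1 was called, Clpx, an unfoldase that also activates haem synthesis, which fell from 2380 ± 386 to 993 ± 112 (SD, n = 4; log2 fold change −1.26 ± 0.12 SE, adjusted p = 0.000449, edgeR).

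Of 5 genes for heat shock factors and the factor-binding protein Hsbp1, none was called. The 1 lower at an unadjusted p under 0.05 was Hsbp1, which is not itself a factor (−0.18 ± 0.07 SE, unadjusted p = 0.0283, adjusted p = 0.212, edgeR). Hsf1, the main activator of the inducible members, stood at 309.7 ± 14.1 with vehicle and 277 ± 30.1 with PCN (SD, n = 4; log2 fold change −0.15 ± 0.10 SE, adjusted p = 0.439, edgeR). Hsf4 had 0.62 ± 0.17 (SE, unadjusted p = 0.00386, adjusted p = 0.0749, edgeR). Hsf1 activity is controlled largely at the protein level, which was not measured.

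Chaperones of the endoplasmic reticulum, regulated apart from Hsf1, had a median of −0.40 (−0.24 without vehicle library 3). All 15 had a fitted change below 0, 11 were lower at an unadjusted p under 0.05 and 1 was called, Manf, which fell from 771 ± 150.6 to 483 ± 57.7 (SD, n = 4; log2 fold change −0.66 ± 0.13 SE, adjusted p = 0.0180, edgeR). Vehicle library 3 was the highest vehicle library for 15 of 15 of them. Of 15 immediate early genes 2 were called lower, Klf2 (−0.74 ± 0.14 SE, adjusted p = 0.0160, edgeR) and Jund (−0.41 ± 0.10 SE, adjusted p = 0.0465, edgeR), and 1 without vehicle library 3. The median of the 15 was −0.30 (−0.20 without vehicle library 3). Fos and Egr1 were not called (−0.60 and −0.45, adjusted p = 0.502 and 0.674, edgeR). Junb and Ier2, fitted above 0, were not called either (0.51 and 0.45, adjusted p = 0.0860 and 0.0910, edgeR). The fitted change was below 0 in 10 of the 15. Vehicle library 3 was the highest for 5 of these 15.

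**Figure D3:**
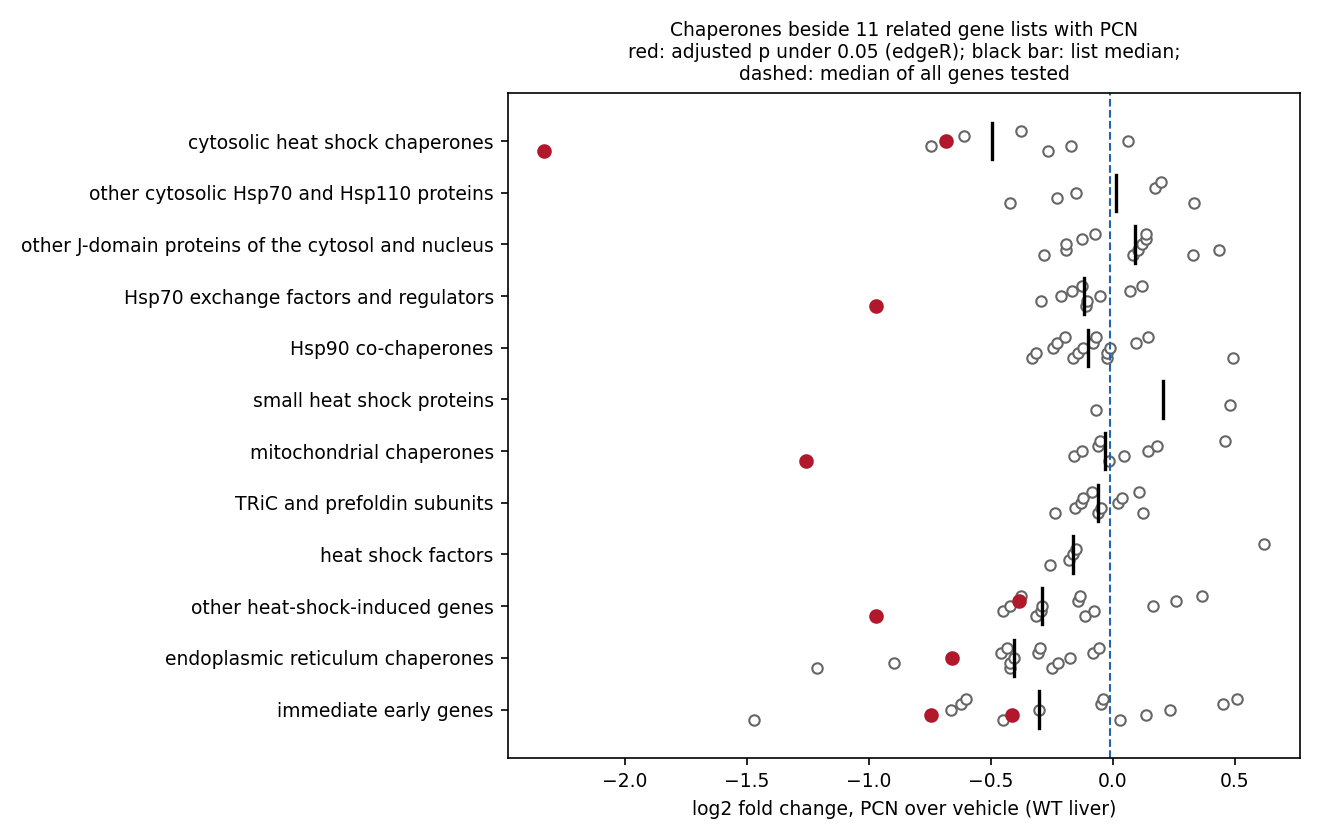
Log2 fold change with PCN of each tested gene of the chaperone set and 11 related lists; red points have adjusted p under 0.05, black bars are list medians, and the dashed line is the median of all genes. The chaperones and the endoplasmic reticulum chaperones have medians of −0.49 and −0.40, immediate early and other heat-shock-induced genes −0.30 and −0.29, and the other 8 lists −0.16 to 0.21.

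Cell type markers were read beside these counts. The hepatocyte sums given above did not overlap, and all 8 hepatocyte markers had a fitted change below 0. Kupffer cell markers summed to 2848 to 5086 with vehicle and 1677 to 3802 with PCN (10 of 10 markers listed and fitted below 0, 0 called, edgeR). Stellate markers went mostly the other way, with 1 of 8 fitted below 0 and a median log2 fold change of 0.26. They summed to 3970 to 4922 with vehicle and 3768 to 5990 with PCN. Of 8 hepatocyte markers 1 was called lower, Tat, and of 8 stellate markers 1 was called higher, Lrat. Sums for endothelial markers were 4719.8 to 5432 with vehicle and 4063 to 5881 with PCN, for erythroid markers 1211 to 1508 and 1094 to 1591, for cholangiocyte markers 191 to 345 and 218 to 302, and for lymphocyte and neutrophil markers 202 to 404 and 147 to 293. The 1 pancreas marker listed stood at 112 to 212 and 74.6 to 143. Adipocyte markers summed to at most 6.07, and no skeletal muscle marker was listed. In vehicle library 3 the hepatocyte and Kupffer sums were 838253 and 3889, inside the range of the other vehicle libraries. Its endothelial and stellate sums were the lowest of the group, and its cholangiocyte sum, 345, was the highest. The part of cell types in the chaperone changes was not tested.

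Atorvastatin against vehicle in WT asks what a statin does on the same scale, and shares the vehicle libraries with PCN. By the authors' deposited call, 1 of the 10 members was called lower, Hsp90aa1 (log2 fold change −0.44, adjusted p = 0.0464), where 4.1% of 13921 genes were called lower. Hsp90aa1 stood at 1039, 919, 788 and 1307 with atorvastatin, against 1134 to 1896 with vehicle. Atorvastatin library 4 lay inside the vehicle range, so the groups overlapped. The mean was 1013 ± 221 against 1446.5 ± 334 with vehicle (SD, n = 4). In edgeR on the listed genes it was not called (−0.51, 95% interval −0.88 to −0.13, adjusted p = 0.115), nor in 7 of 8 fits with a library left out; the exact two-sided permutation test gave p = 0.0857. Without vehicle library 3 the fitted change was −0.35.

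Dnajb1 stood at 310.2, 279, 309 and 334 with atorvastatin in WT, and the vehicle range was 309 to 449.7. The groups overlapped (308 ± 22.3 against 363 ± 67.3, SD, n = 4; log2 fold change −0.23, 95% interval −0.50 to 0.04, adjusted p = 0.592, edgeR on listed genes). Another scaling between tables, called scaling by shared genes, took the median ratio to libraries already scaled, over the genes that a table lists. In the tables used for WT atorvastatin and PXRKO vehicle those genes were selected by a limit on the adjusted p. Such genes need not have a median of no change, which limits this scaling as a check. Under it the Dnajb1 mean was 268 and the groups no longer overlapped. The exact two-sided permutation test moved from p = 0.171 to p = 0.0286. Related groups in the authors' deposited table were called lower in 7 of 15 endoplasmic reticulum chaperones, Sdf2l1 (−0.94), Manf (−0.67), Hyou1 (−0.57) and Hspa5 (−0.48) among them, and Bag3 (−0.51), Sqstm1 (−0.36) and Clpx (−1.24) were called lower as well. From a list of 8 other Hsp70 and Hsp110 genes the same table called 2 lower, Hspa4 (−0.31) and Hspa13 (−0.33), and 1 higher, Hspa2 (0.62). Of 16 other J-domain genes it called 2 higher, Dnajb5 (0.62) and Dnajb6 (0.38), and 0 lower. Of all 13921 genes tested there, 571 were called lower and 762 higher. Hsf4 (0.50) was called higher, Dnaja3 (−0.26) and Cct3 (−0.36) lower, and of 17 immediate early genes 2 were called in each direction in the authors' deposited table.

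Atorvastatin and PCN were set against each other for Dnajb1 and Hsp90aa1. Dnajb1 has WT atorvastatin levels only because it was called in PXRKO against WT under atorvastatin, where WT was the higher group. That selection favours a high WT atorvastatin level, so the Dnajb1 difference from PCN is descriptive. The doses differed, 10 mg/kg against 100 mg/kg, so the values are side by side and not matched. Dnajb1 stood at 279 to 334 with atorvastatin and at 199.6 to 236 with PCN, with no overlap (exact two-sided permutation p = 0.0286, the smallest the design allows). The log2 difference was 0.46 (95% interval 0.25 to 0.66; adjusted p = 0.0328 over the 2328 genes listed for both, edgeR), where 2.36% of those genes were called. It was 0.25 under the scaling by shared genes, with no overlap. The edgeR call was lost in 6 of 8 fits with a library left out. Hsp90aa1 differed by −0.12 (95% interval −0.59 to 0.34; adjusted p = 0.789, edgeR on listed genes; exact two-sided permutation p = 0.771).

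The tables of pravastatin against vehicle, the longest with 929 genes, list no member, and 0.191% of 14667 genes were called there. No chaperone level with pravastatin was therefore had, and atorvastatin and pravastatin were not compared for these genes.

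PXRKO against WT, both with vehicle, asks whether the chaperones differ without PXR. Hspa1b stood at 123, 204, 322 and 490.0 in PXRKO libraries 1 to 4, against 124 to 651 in WT. The ranges overlapped almost wholly, and the log2 difference was 0.01 (95% interval −1.05 to 1.08; adjusted p = 1, edgeR on listed genes). Without WT vehicle library 3 it was 0.68 (95% interval −0.148 to 1.5003) and still not called. Hsph1 stood at 575, 659.8, 907 and 1343 in PXRKO vehicle, against 637 to 1238 in WT (−0.05, 95% interval −0.59 to 0.49). Dnajb1 stood at 252, 332, 319 and 338, against 309 to 449.7 in WT, with overlap (−0.22, 95% interval −0.52 to 0.08). None of the members was called by the authors in this comparison, where 2.08% of 14780 genes were called, nor by edgeR on listed genes, at an unadjusted p of 0.131 or more. Under the scaling by shared genes Dnajb1 did not overlap (exact two-sided permutation p = 0.0286, in place of 0.286).

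PXRKO vehicle library 4 was the highest of its group for Hspa1b and Hsph1 and, by a narrow margin, for Dnajb1. A single library high in several inducible chaperones was thus seen in both vehicle groups. In each it was the library with the smallest size factor of its group. With PCN the smallest size factor was that of library 3 (0.659), the lowest library for 5 of 9 members. In PXRKO atorvastatin it was that of library 2 (0.636), while library 4 was the highest for Hspa1b and Hsph1. The cause of the high libraries was not tested.

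Atorvastatin in PXRKO asks whether the statin acts without PXR. The authors called none of the members, where 0.105% of 11443 genes were called. Levels exist for 3 members because a list of 539 genes with adjusted p up to 0.9871 holds them, so their differences were selected by the values compared. Hspa1b stood at 88.2, 80.2, 76.1 and 236 with atorvastatin, against 123 to 490.0 with vehicle. Library 4 reached into the vehicle range, while the other 3 libraries lay below it (120.3 ± 77.7 against 285 ± 159, SD, n = 4; adjusted p = 0.9752 in the authors' deposited table). The fitted log2 fold change was −1.22 (95% interval −2.17 to −0.28; adjusted p = 0.534, edgeR on listed genes). It was −1.79 without atorvastatin library 4 and −0.84 without vehicle library 4, not called in either fit.

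Hsph1 stood at 462, 535, 522 and 709 with atorvastatin in PXRKO, against 575 to 1343 with vehicle, with overlap (−0.64, 95% interval −1.14 to −0.13; adjusted p = 0.545, edgeR on listed genes). Dnajb1 stood at 248, 263, 177 and 154, against 252 to 338 with vehicle, with library 2 alone inside the vehicle range (210.4 ± 53.0 against 310.3 ± 39.9, SD, n = 4; −0.57, 95% interval −0.93 to −0.21; adjusted p = 0.507, edgeR on listed genes). Library 4 was the highest of its group for Hspa1b and Hsph1 and the lowest for Dnajb1, so these members did not move together there. Their fitted changes, −1.22, −0.64 and −0.57, stand beside −2.33, −0.61 and −0.68 with PCN in WT, at another dose, genotype and experiment, and only the PCN values are free of that selection. In the authors' deposited table Calr and Pdia6, of the endoplasmic reticulum, were called lower in PXRKO with atorvastatin (−0.37 and −0.39).

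**Figure D4:**
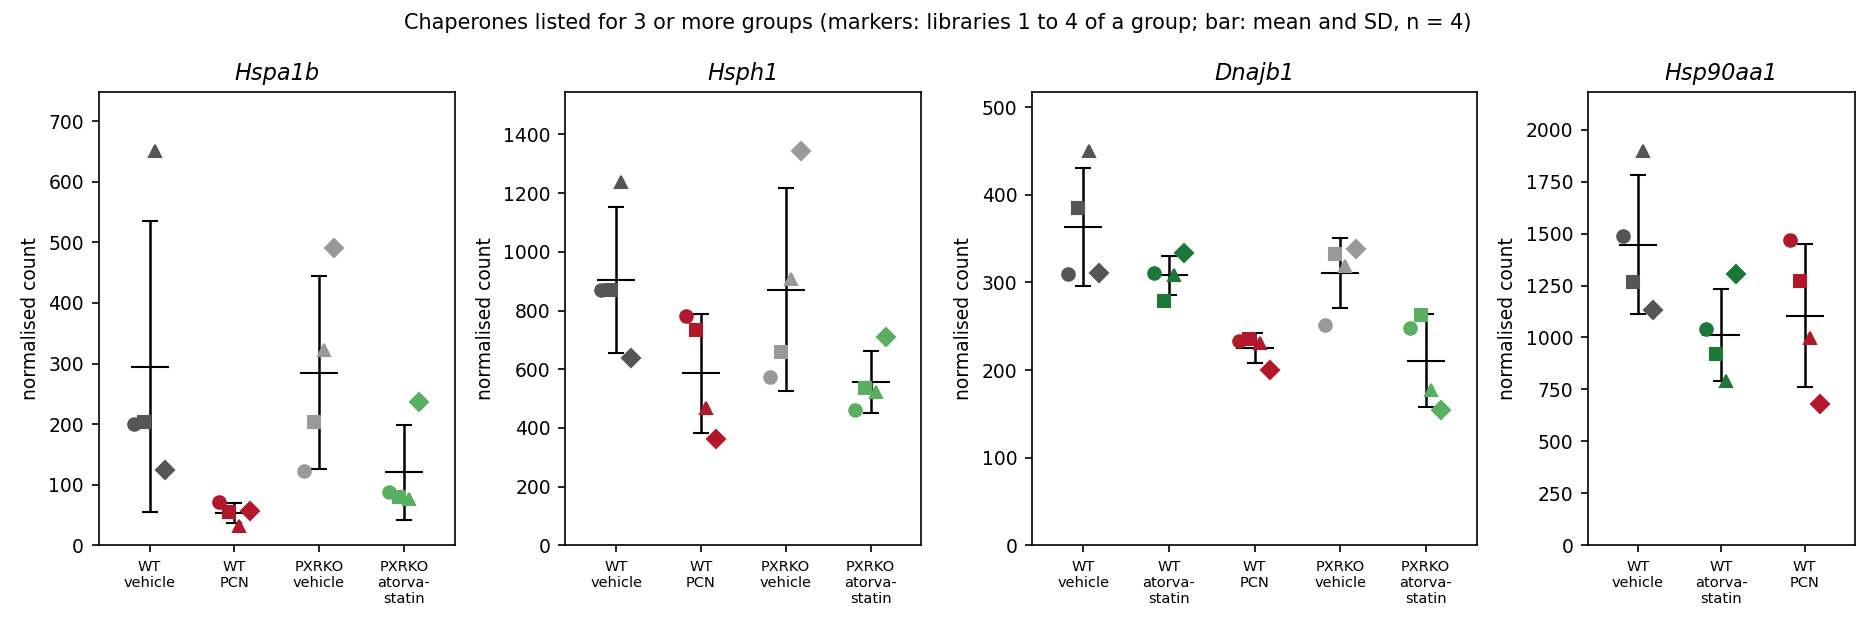
Normalised counts per library of the 4 members listed for 3 or more groups; markers are libraries 1 to 4 of a group, and bars give the mean and SD (n = 4). Dnajb1 lies at 199.6 to 236 with PCN and at 154 to 263 in PXRKO with atorvastatin, both below the 4 WT atorvastatin libraries, while Hspa1b spans wide ranges in both vehicle groups. Dnajb1 has WT atorvastatin levels only because it was called lower in PXRKO than in WT under atorvastatin.

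Under atorvastatin, PXRKO was set against WT. Dnajb1 was the 1 member called lower in the authors' deposited table (log2 fold change −0.50, adjusted p = 0.0168), where 5.1% of 14690 genes were called lower. All 4 PXRKO libraries, at 154 to 263, lay below all 4 WT libraries, at 279 to 334 (exact two-sided permutation p = 0.0286, the smallest the design allows). Dnajb1 has WT atorvastatin levels only because it was called in this same comparison. The lack of overlap and the permutation p therefore add no separate support to the authors' call. In edgeR on the listed genes the change was −0.56 (95% interval −0.90 to −0.23) with adjusted p = 0.0507, and it was called without PXRKO atorvastatin library 1 or 2. The difference of differences, the atorvastatin effect in PXRKO less that in WT, was −0.34 for Dnajb1 (95% interval −0.80 to 0.12; adjusted p = 0.399 over 357 genes, edgeR on listed genes), where 11.5% of those genes were called. A genotype-dependent response of Dnajb1 was thus not shown. Dnajb6, in the same authors' table, was called lower too (−0.47). So were Fkbp4 (−0.39), Fkbp5 (−0.55), Hsf4 (−0.50), Dnajb9 (−0.39), Tcim (−0.65) and 3 of 17 immediate early genes. Clpx (1.10), Sqstm1 (0.42), Dnaja3 (0.32), Cct3 (0.32) and Hspa4 (0.27) were called higher, where 625 of 14690 genes were called higher.

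Across the 5 groups with values, the mean level of Dnajb1 ran from 363 in WT vehicle through 310.3 in PXRKO vehicle, 308 in WT atorvastatin and 225 with PCN to 210.4 in PXRKO atorvastatin. WT vehicle, PXRKO vehicle and WT atorvastatin overlapped, PXRKO vehicle and WT atorvastatin changing places under the scaling by shared genes (264 and 268), and PCN and PXRKO atorvastatin overlapped. For Hspa1b the order was WT vehicle (295), PXRKO vehicle (285), PXRKO atorvastatin (120.3) and PCN (54.2). WT vehicle and PXRKO vehicle overlapped, and without WT vehicle library 3 their ratio turned from 1.03 to 0.618. PXRKO vehicle and PXRKO atorvastatin overlapped as well, and the gap between PXRKO atorvastatin (76.1 or more) and PCN (71.7 or less) is smaller than the shift between scalings. For Hsph1 the order was WT vehicle (904), PXRKO vehicle (871), PCN (586) and PXRKO atorvastatin (557), with overlap between every neighbouring pair. For Hsp90aa1 it was WT vehicle (1446.5), PCN (1105) and WT atorvastatin (1013), with overlap between each pair. Levels outside WT vehicle and PCN were set across separately normalised tables, and scaling by shared genes lowered them by 10.1% to 15.1%.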

How the data were processed

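Liver RNA in 24 libraries, 6 groups of 4, was analysed from 15 deposited tables, each holding 8 libraries of a pair of groups. Per the submitters' processing notes, reads were counted with HTSeq and tested with DESeq2 on GRCm38. No source used here names the aligner. Counts, as deposited, are whole reads per gene. A signal column (baseMean), also deposited, holds the authors' mean of counts divided by size factors. The log2 fold changes and the p-values used for calls outside PCN are the authors', as deposited.

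Columns were assigned to groups (120 used, 0 unused), and library numbers follow column order. 95820 of 95820 counts of libraries repeated between tables were identical. Genes were joined by symbol and coordinates, because the identifier column was out of register with the symbols. Size factors were recovered from baseMean by least squares and joined through shared libraries.

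PCN against vehicle was fitted with edgeR 4.0.16 (TMM, filterByExpr, quasi-likelihood F test, Benjamini-Hochberg adjusted p at 0.05) on 12938 genes. In simulated libraries of that comparison 99% of 2-fold and 100% of 4-fold changes were called (12967 genes). Only genes above a minimum mean were changed there, with the spread typical of their level. Recovery of changes in members with a wider spread, such as Hspa1b, was not simulated. Other comparisons used the authors' calls. The edgeR fit on listed genes took its dispersion trend and prior (5.84 degrees of freedom) from the vehicle and PCN libraries, and its adjusted p counts all genes the authors tested, or, for atorvastatin against PCN and the interaction, the genes listed. Exact permutation tests ran on log2(normalised count + 1) over 70 splits. P-values measure the spread between libraries, and no source says beyond the animal numbers in the titles that libraries came from separate animals. Named genes were all members, list genes past the threshold with PCN or with the largest changes, and the 6 genes most like Hspa1b and Hsp90aa1. C2 and other neighbours of Hspa1b, Hsf1, Fos, Egr1, Junb, Ier2, Tat and Lrat, and list genes called by the authors, were named after their values were seen. The members and lists were chosen with earlier results of these data known. Promoters came from RefSeq (GRCm38.p6), gene lengths and coordinates from GENCODE on GRCm38. Scripts used Biopython 1.88, matplotlib 3.10.9, scipy 1.17.1, pandas 2.3.3 and numpy 2.4.6 in Python 3.11.15, and DESeq2 1.42.0 and limma 3.58.1 in R 4.3.3. Alternatives were another normalization, no filter, DESeq2, summed Hspa1a and Hspa1b, another pseudocount, another scaling between tables, and each library left out.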

Additional observations from a re-analysis of the deposited data

Results flagged for a closer look

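Of 26 sets of 4 libraries examined, 3 held a library whose gap to the nearest other took a share of the whole range above Dixon's 95% limit, and chance gives about 1 in 20. For Hspa1b in WT vehicle, library 3 stood at 651 above a next value of 204, a gap of 0.848 of the range. For Hspa1b in PXRKO atorvastatin, library 4 stood at 236 above 88.2, a gap of 0.925. For Dnajb1 with PCN, library 4 stood at 199.6 below 231, a gap of 0.862. Vehicle library 3 was also the highest vehicle library for 8 of 9 members and for 15 of 15 endoplasmic reticulum chaperones, while 27.5% of all genes tested peaked there. No cause was tested.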

How the results depend on the processing

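With PCN, 2 members were called under DESeq2 size factors, no filter, summed Hspa1a and Hspa1b, the DESeq2 Wald test and the authors' deposited call. Leaving out 1 library gave 1 to 2, Hspa1b being lost without PCN library 2, 3 or 4. Directions of all 8 tested members held in all 13 alternatives, with Hspa1b at −2.59 to −1.66 and Dnajb1 at −0.75 to −0.58. For atorvastatin against vehicle in WT and for PXRKO against WT under atorvastatin, the authors' 1 call became 0 in edgeR on the listed genes and 0 to 1 with a library left out. The cause was not tested. The 0 calls with atorvastatin in PXRKO and in PXRKO vehicle were 0 in each edgeR fit on listed genes, and the 0 with pravastatin only repeat that no member is listed. For atorvastatin against PCN the edgeR call of Dnajb1 was lost in 6 of 8 fits with a library left out; its exact permutation p cannot move there, since the groups do not overlap. The difference of Hsp90aa1 (−0.09) ran from −0.31 to 0.065 with a library left out, turning to 0.065 without PCN library 1 and 0.020 without atorvastatin library 3. Counts of all genes called with PCN moved from 459 to 223 to 480 with a library left out and to 761 with DESeq2. Scaling by shared genes moved Dnajb1 by more than 1 SD in WT atorvastatin (268) and PXRKO vehicle (264). Levels in WT vehicle and WT PCN are the same under both scalings by construction and could not move. The remaining levels in the other groups moved by less than 1 SD. The Dnajb1 interaction, the lists without vehicle library 3 and the differences under scaling by shared genes were added after seeing the data. Not run: the animal-number covariate with pravastatin and every alternative of atorvastatin against pravastatin, since no member was listed. No paired analysis was possible because the groups share no replicate numbers in the labels. Depth limits Hspa1a (44 and 7 reads).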
